A study of Homo sapiens with 6 samples.

Results

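RAB GTPases and the RAB11 effectors of the RAB11FIP family were followed in SNU-398, an established hepatocellular carcinoma cell line, with and without knockdown of SALL4, a zinc finger transcription factor of stem cells and fetal liver. A gene was a member if its symbol was RAB, a number and at most 1 letter, or RAB11FIP1 to RAB11FIP5. This gave 65 genes, 60 RAB GTPases and 5 RAB11 effectors, of the 18404 genes with a probe set, a group of probes summarised into 1 intensity, that names a single gene. RAB4B, RAB34, RAB6C and RAB6D were named only by probe sets shared with other genes and have no value here. The family was picked because RAB5B and RAB11FIP4 were among the larger rises in the same comparison. Values of these 2 genes are therefore a description without a test, and the count of members called in that comparison is not independent of the choice.

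Total RNA of 6 SNU-398 cultures was hybridized on Affymetrix arrays: 3 cultures received a scrambled short hairpin RNA (shRNA) as the control and 3 received shRNA against SALL4. All 6 were the same line grown in RPMI medium with fetal bovine serum. The labels call the 3 arrays of each group biological replicates. They do not say how many hairpin sequences were used, how they were delivered or when RNA was taken, and they name no rescue. What the hairpin does to other transcripts directly and what follows from lower SALL4 cannot be told apart. In bulk RNA, fewer cells of a kind and less RNA per cell cannot be told apart either.

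RAB GTPases are molecular switches on the membranes of the cell. Exchange factors load them with GTP and so switch them on, GTPase-activating proteins switch them off, and GDP dissociation inhibitors keep the inactive, prenylated protein in the cytosol. Each active RAB recruits its own effectors: RAB5 proteins drive fusion of early endosomes, RAB4, RAB11 and their partners return cargo to the surface, RAB7 proteins serve late endosomes and lysosomes, and RAB1, RAB2, RAB3, RAB8 and RAB27 proteins act between the endoplasmic reticulum, the Golgi and the surface. The RAB11FIP proteins bind RAB11 and link recycling endosomes to motors. In liver cells, recycling endosomes carry cargo to the bile canalicular membrane.

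The 3 RAB5 paralogs are encoded at separate loci, and the 250 bases before the start of each are shown because RAB5B is one of the genes the family was picked on and RAB5A and RAB5C are its paralogs. The sequences are those of RefSeq on build GRCh38.p14, written along the gene's strand, and capitals mark CACGTG, the E-box that basic helix-loop-helix factors bind. The RAB5B window is chr12:55973699-55973948 on the plus strand, the RAB5A window chr3:19946847-19947096 on the plus strand and the RAB5C window chr17:42154990-42155239 on the minus strand.
RAB5B: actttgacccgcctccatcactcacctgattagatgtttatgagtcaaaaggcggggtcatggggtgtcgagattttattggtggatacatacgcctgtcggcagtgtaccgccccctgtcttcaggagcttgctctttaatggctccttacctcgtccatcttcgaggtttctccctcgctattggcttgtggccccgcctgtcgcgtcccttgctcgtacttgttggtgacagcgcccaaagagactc
RAB5A: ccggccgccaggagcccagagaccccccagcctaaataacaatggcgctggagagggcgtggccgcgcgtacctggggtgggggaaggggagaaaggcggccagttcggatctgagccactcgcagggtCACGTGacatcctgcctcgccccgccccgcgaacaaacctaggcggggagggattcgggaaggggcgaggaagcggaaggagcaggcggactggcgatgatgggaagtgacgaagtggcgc
RAB5C: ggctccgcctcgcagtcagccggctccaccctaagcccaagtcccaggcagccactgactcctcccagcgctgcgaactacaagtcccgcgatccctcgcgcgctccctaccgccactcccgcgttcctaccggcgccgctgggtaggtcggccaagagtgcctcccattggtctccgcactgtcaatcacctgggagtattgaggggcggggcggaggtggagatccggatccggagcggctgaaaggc
The windows differ in base composition: GC content was 54% for RAB5B, with 14 CpG, and 67.6% for RAB5A and for RAB5C, each with 23 CpG. ATATT, letters of the AT-rich kind that SALL4 binds, and TATAAA, the TATA box, were in none of the 3 windows on either strand, and CACGTG was in RAB5A alone. ATATT and TATAAA can share letters and were searched separately. Over the 49 of 65 members with a promoter in the table, 8.16% held ATATT, 10.2% CACGTG and 4.08% TATAAA. The shares were 10.3%, 8.91% and 5.95% for the 10580 genes of the comparison with a promoter, and 22%, 6.49% and 11.1% for all 27305 promoters. Median GC content was 65.6% for the members and 65.2% for the 10580 genes. A match is a description of these letters and not a binding site.

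Across the series, array medians lay between 47.85 and 51.69 intensity units, and 15.5% to 16.9% of the values of each array were at the floor of 10. SALL4 was at 283, 264 and 335 on the scrambled arrays and at 121, 119 and 117 on the knockdown arrays, a log2 change of -1.30 ± 0.18 (SE) that passed the test (limma adjusted p = 0.0108; 0.0946 with no filter on dim genes; 0.0685 without scrambled replicate 3 and knockdown replicate 2). These 2 arrays lay apart from the others on the second principal component (18 and 23.6, against -16.7 to -1.12 for the others), which held 20.1% of the variance. Markers were set against 32 intensity units, 5 on the log2 scale, by the mean of their log2 values over the 6 arrays. Of 8 hepatocyte markers, 5 were below 32, among them albumin (ALB, 10.1 to 12.8 over the 6 arrays), while APOA1, APOA2 and SERPINA1 had means of 32.6 to 71.8 in either group. Of 7 blood markers 6 were below 32, with PTPRC and LYZ at the floor on every array, and so were 5 of 6 endothelial markers. Of 5 cholangiocyte markers only CFTR was below 32. EPCAM was at 963 ± 152 with scrambled and 894 ± 115 with SALL4 shRNA (SD, n = 3 each). KRT7, KRT19 and SOX9 had means of 45.7 to 138.5 in either group, and 0 of the 4 in the fit passed. All 7 fibroblast markers were above 32. Their summed intensity ranged from 1626 to 1777 with scrambled and from 1181 to 1523 with SALL4 shRNA, and DCN (-1.25) and ACTA2 (-1.02) fell. The other 5 did not pass, with COL3A1 at -0.54, LUM at -0.08, PDGFRB at 0.32, COL1A1 at 0.37 and COL1A2 at 0.50 on the log2 scale; the part of this in the RAB values was not tested.

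RAB5B and RAB11FIP4, the 2 genes the family was picked on, had the largest rises among the members, which follows in part from that choice. Both were higher on every knockdown array than on any scrambled array, RAB5B by 2.58-fold and RAB11FIP4 by 2.44-fold. The comparison held 13325 genes, those with a mean log2 value of at least 5 (32 intensity units), 57 of them members. Of these 57, RAB5B and RAB11FIP4 were also the only ones past an adjusted p of 0.05 in limma. Of all genes tested 1.65% passed (0.6% higher and 1.05% lower). Since RAB5B and RAB11FIP4 are the genes the family was picked on, nothing is read from the count of 2 or from their lack of overlap. The count was 0 with no filter and 0 without scrambled replicate 3 and knockdown replicate 2. It was 1 when any single array other than scrambled replicate 3 was left out. The remaining 55 members did not pass in limma, with 0.0882 for RAB39A as the lowest adjusted p, and 9 of them had an unadjusted p under 0.05, beside 16.8% of all genes.

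**Figure D1:**
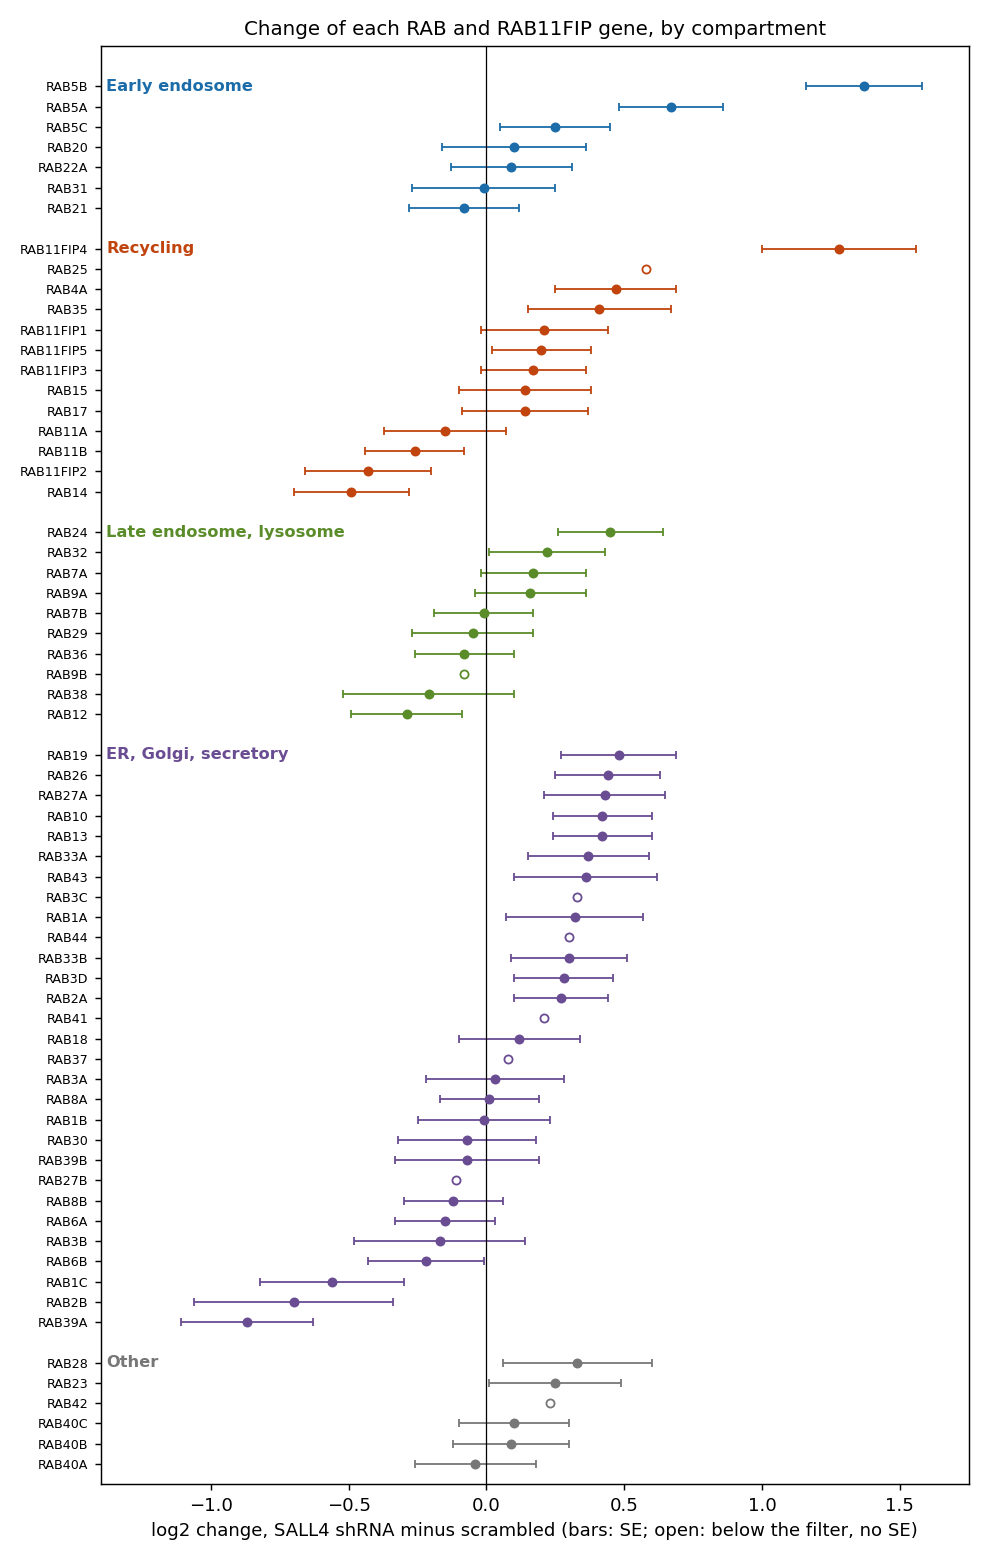
Log2 change (SALL4 shRNA minus scrambled, x axis) of each of the 65 genes, in 5 compartment groups, with bars for the SE of the limma fit. RAB5B (1.37) and RAB11FIP4 (1.28) lie to the right of the others, RAB39A (-0.87) lies farthest to the left, and open circles are the 8 dim genes outside the fit.

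As a family the other members lay close to zero. Of the 55 in the fit other than RAB5B and RAB11FIP4, 33 had a positive and 22 a negative change, with a median of 0.10 on the log2 scale, beside 6971 positive and 6354 negative changes and a median of 0.02 for all 13325 genes. The groups did not overlap for 10 of the 55, 8 higher and 2 lower with SALL4 shRNA, where 22.2% of all genes did not overlap (11.5% higher, 10.8% lower). The median within-group SD was 0.29 on the log2 scale for these 55 and 0.25 for all genes, so most single changes lie within about the spread of the arrays. Set against the scrambled mean, the median of the 55 was at 0.16, 0.08 and 0.08 on the 3 knockdown arrays, and the median gene at 0.04, -0.01 and 0.02. With each array centred on its own median, 37 of 55 were positive and the median was 0.15, with the median of all genes at 0.064. Leaving out 1 array moved the change of 44 of the 55 by over 1.5 times or turned its sign. It did so for 77.8% of all genes. Values below are therefore given without 1 array for many of the genes where that array carries much of them. A change given without such a value can also rest on 1 array.

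**Figure D2:**
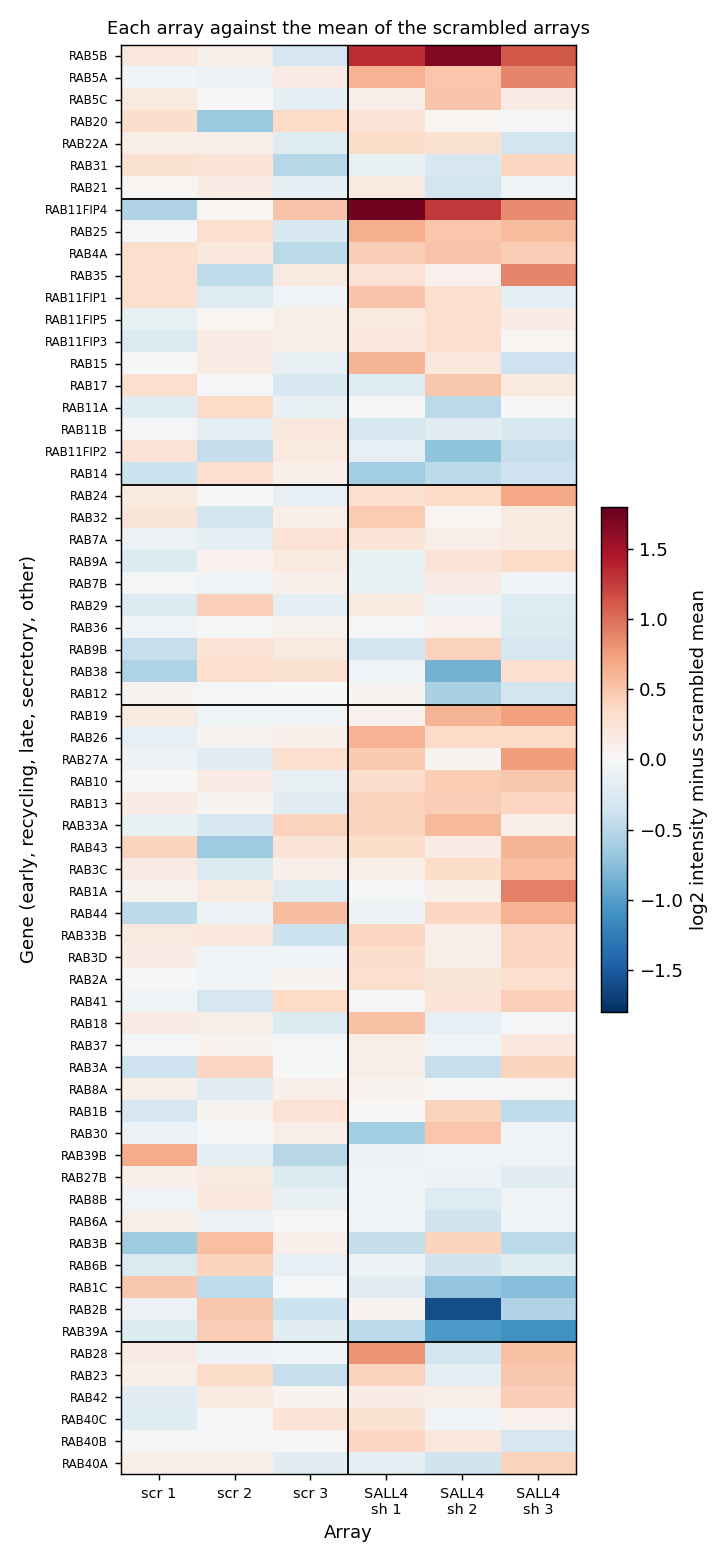
Log2 intensity of each of the 65 genes (rows, by compartment group) on each of the 6 arrays (columns), minus the mean of the 3 scrambled arrays, in colour. RAB5B and RAB11FIP4 are the darkest red rows on knockdown replicates 1 and 2, and RAB2B on replicate 2 and RAB39A on replicates 2 and 3 are the darkest blue.

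Among the 7 early endosome genes, the RAB5 paralogs ranked RAB5B, RAB5A, RAB5C in the size of their change. RAB5B (probe set 7956088) was at 126, 116 and 88.7 with scrambled and at 274, 345 and 237 with SALL4 shRNA. Its lowest knockdown array was well above its highest scrambled array, and the log2 change was 1.37 ± 0.21 (SE), or 1.08 without scrambled replicate 3 and knockdown replicate 2. RAB5A was at 515, 497 and 589 and at 819, 749 and 981, also without overlap. Its log2 change of 0.67 ± 0.19 did not pass the fit (limma adjusted p = 0.0945, and 0.0344 with the trend and robust settings). RAB5C was at 454, 397 and 356 and at 428, 573 and 443, where the groups overlap, and its change was 0.25 ± 0.20, or 0.12 without knockdown replicate 2. The differences between the 3 paralogs were not tested.

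The other 4 early endosome genes overlapped between the groups. RAB22A, which acts between early and recycling endosomes, had intensities of 1013 ± 131 and 1094 ± 253 (SD, n = 3 each), and its log2 difference was 0.09 ± 0.22 (SE). RAB21, a regulator of integrin traffic, was at 434 ± 44.9 and 413 ± 71.3, a difference of -0.08 ± 0.20. RAB20 was at 0.10 and RAB31, which also acts at the trans-Golgi network, at -0.01. The median of the 6 genes other than RAB5B was 0.09.

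The recycling group held 13 genes, 12 of them in the fit, and the 11 other than RAB11FIP4 had 7 positive and 4 negative changes and a median of 0.14. Its 2 central GTPases, RAB11A and RAB11B, had small differences. RAB11A was at 497, 734 and 533 with scrambled and at 584, 415 and 581 with SALL4 shRNA, which overlap, and its difference was -0.15 ± 0.22 (SE) but 0.02 without scrambled replicate 2 and 0.01 without knockdown replicate 2. RAB11B was at 415, 377 and 486 and at 349, 367 and 346, each knockdown array below each scrambled array, with a difference of -0.26 ± 0.18 that did not pass and was -0.16 without scrambled replicate 3. RAB25, the third gene of the RAB11 subfamily and a gene of epithelia, was dim on all arrays (12.1 to 23.1) and lay outside the fit.

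Of the 5 RAB11FIP effectors, RAB11FIP4 had the largest difference. RAB11FIP4 (probe set 8006298) was at 56.5, 84 and 117 with scrambled and at 272, 198 and 148 with SALL4 shRNA. The groups do not overlap, but the gap between them, from 117 to 148, is smaller than the range within either group, and the log2 change was 1.28 ± 0.28 (SE), between 1.01 and 1.54 without any 1 array. RAB11FIP3, the other class II effector, was at 79.2, 103 and 103 and at 108, 115 and 96.4, a difference of 0.17 ± 0.19 that was 0.04 without scrambled replicate 1. RAB11FIP1 (0.21 ± 0.23, and 0.05 to 0.40 without 1 array) overlapped between the groups as well. RAB11FIP5 was at 90.2, 101 and 106 and at 112, 122 and 108, without overlap but with a change of only 0.20 ± 0.18, or 0.13 without scrambled replicate 1. RAB11FIP2, which links RAB11 to myosin V, lay the other way, at 740, 464 and 699 and at 559, 377 and 466, a difference of -0.43 ± 0.23, or -0.28 without knockdown replicate 2. Differences between the effectors were not tested.

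**Figure D3:**
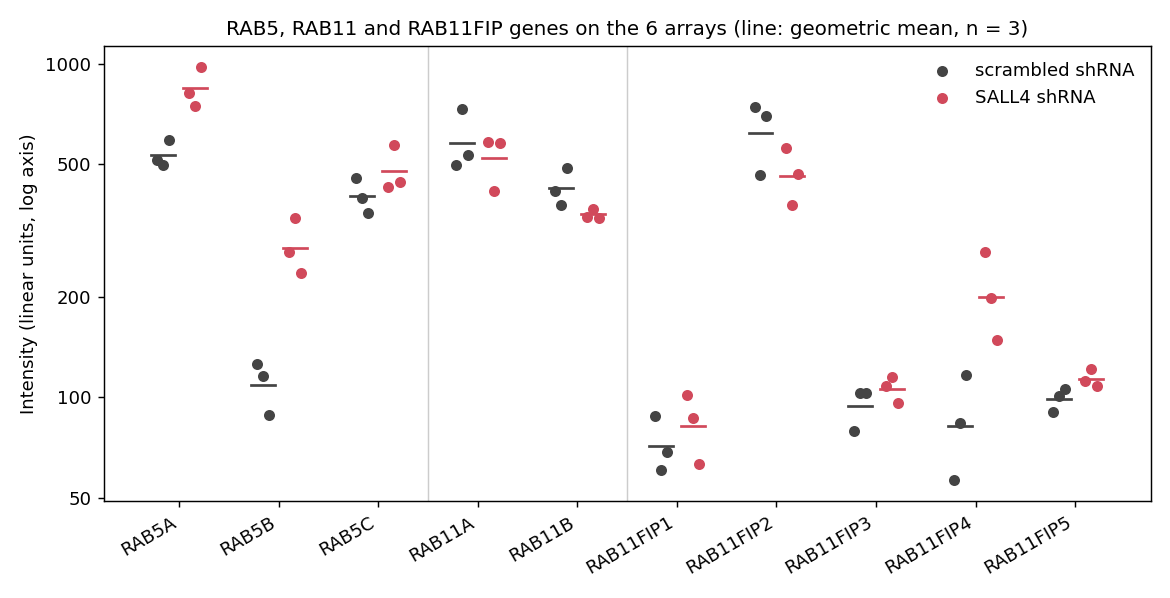
Intensity (log axis) of the RAB5, RAB11 and RAB11FIP genes on each array, with scrambled arrays in grey, SALL4 shRNA arrays in red and a line at the geometric mean of 3 arrays. For RAB5A, RAB5B, RAB11FIP4 and RAB11FIP5 all red points lie above the grey ones, for RAB11B they lie below, and for the other genes they overlap.

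Of the fast recycling genes, RAB4A was at 147, 137 and 86.4 with scrambled and at 163, 172 and 164 with SALL4 shRNA. Scrambled replicate 3 was the low array, and the log2 difference of 0.47 ± 0.22 (SE) was 0.23 without it. RAB35, which also acts in cytokinesis, was at 196, 117 and 181 and at 193, 170 and 296, which overlap, a difference of 0.41. Scrambled replicate 2 was the low array and knockdown replicate 3 the high one, and much of the difference rests on them. RAB14, which acts between the Golgi and endosomes, was at 232, 378 and 324 and at 197, 220 and 237, a difference of -0.49 ± 0.21, the most negative of the group. RAB15 and RAB17 were both at 0.14.

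Late endosome and lysosome genes had the median nearest to zero of the 5 groups. Of 10 genes 9 were in the fit, 4 with a positive and 5 with a negative value, and the median was -0.01. RAB7A, the main RAB of late endosomes, was at 1869, 1809 and 2421 with scrambled and at 2371, 2160 and 2256 with SALL4 shRNA, a difference of 0.17 ± 0.19 (SE). A second RAB7A probe set was at 631, 787 and 499 and at 610, 235 and 517, a difference of -0.58, so its probe sets disagree in direction and the mean of both was -0.21. RAB24, linked to autophagy, was at 104, 92.2 and 83.5 and at 113, 119 and 151, without overlap, a difference of 0.45 ± 0.19. RAB32, a RAB of lysosome-related organelles, was at 0.22 ± 0.21 (0.05 without scrambled replicate 2), and RAB29, which recruits the kinase LRRK2, at -0.05 ± 0.22. RAB12, which acts in the degradation of the transferrin receptor, was at 151 ± 4.42 and 126 ± 28.1 (SD, n = 3 each), a difference of -0.29 that was -0.14 without knockdown replicate 2. RAB9A, which acts in return from late endosomes to the Golgi, was at 0.16, RAB38 at -0.21, RAB36 at -0.08 and RAB7B at -0.01.

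The 29 genes of the endoplasmic reticulum, Golgi and secretory routes spread to both sides, 14 positive and 10 negative among 24 in the fit, with a median of 0.08. RAB10 and RAB13, both of exocytic transport, were higher on every knockdown array. RAB10 was at 663, 741 and 606 and at 830, 919 and 936, a difference of 0.42 ± 0.18 (SE). RAB13 was at 727, 690 and 583 and at 886, 905 and 870, also 0.42 ± 0.18, but its second probe set gave -0.10 with overlapping groups. RAB26, of secretory granules, was at 86.2, 99 and 101 and at 148, 121 and 120 (0.44 ± 0.19). RAB19 was at 42.3 ± 4.13 and 59.8 ± 13.4 (SD, n = 3 each), a difference of 0.48 with overlap. RAB27A, which acts in exosome and granule release, was at 71.6, 66.3 and 93 and at 105, 79.2 and 129. Its difference was 0.43 ± 0.22, also with overlap and with knockdown replicate 3 the highest array. None of these passed the fit.

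Paralogs of the early secretory RABs lay on both sides of zero. RAB1A, of transport from the endoplasmic reticulum to the Golgi, was at 1355, 1459 and 1098 and at 1258, 1376 and 2418. Knockdown replicate 3 alone was high, and the difference of 0.32 ± 0.25 (SE) was 0.02 without it. RAB1B was at -0.01 ± 0.24. RAB1C was at 42.2 ± 13.9 and 28.1 ± 6.52 (SD, n = 3 each), a difference of -0.56 that was -0.31 without scrambled replicate 1; it is a near copy of RAB1A whose probes may share signal with it, so its value is uncertain. RAB2A, which acts at the Golgi, was at 322, 308 and 329 and at 391, 372 and 396, without overlap (0.27 ± 0.17), whereas RAB2B was at 172, 260 and 141 and at 192, 61.1 and 127, a wide spread around -0.70 ± 0.36 that was -0.25 without knockdown replicate 2 and -1.07 without knockdown replicate 1. RAB39A was at 96.1, 156 and 99.7 and at 81.8, 55.7 and 53.7, each knockdown array below each scrambled array, and its -0.87 ± 0.24 was the most negative value of the 57. That value was -0.65 without scrambled replicate 2 and -1.06 without knockdown replicate 1. RAB39B was at -0.07. Within each of these pairs the difference was not tested.

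Several secretory paralogs showed little difference or were dim. RAB8A, of transport from the Golgi to the surface, was at 534 ± 57.1 and 537 ± 18.7 (SD, n = 3 each), a difference of 0.01, and RAB8B was at -0.12. RAB6A, of the Golgi, was at -0.15, RAB6B at -0.22, RAB18, of lipid droplets, at 0.12 and RAB30 at -0.07. Among the RAB3 genes of regulated exocytosis, RAB3D was at 0.28, RAB3A at 0.03 and RAB3B at -0.17, all with overlap. RAB33A (0.37), RAB33B (0.30) and RAB43 (0.36) were positive with overlap. For RAB33B, scrambled replicate 3 was low (49.5, beside 73.2 and 74.1). For RAB43, scrambled replicate 2 was low (18.3, beside 37.6 and 33.3), so these values lean on 1 array each. RAB3C, RAB27B, RAB37, RAB41 and RAB44 were below the filter, with mean intensities from 16.5 to 30.5 in either group. Of the other groups, RAB9B (31.1 with scrambled and 29.71 with SALL4 shRNA) and RAB42 (11.81 and 13.85) were below it too.

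Of the 6 remaining members, 5 were in the fit and overlapped between the groups. RAB23, a regulator of Hedgehog signalling, was at 515 ± 129 and 609 ± 137 (SD, n = 3 each), a difference of 0.25 ± 0.24 (SE) that was 0.04 without scrambled replicate 3. RAB28 was at 93.6, 79.3 and 82.1 and at 149, 66.5 and 122 (0.33 ± 0.27), with knockdown replicate 2 below the scrambled arrays; it was 0.67 without that array and 0.09 without knockdown replicate 1. RAB40C, a RAB that acts with a ubiquitin ligase, was at 0.10 ± 0.20, RAB40B at 0.09 and RAB40A at -0.04.

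The regulators and partners of RAB proteins were taken from 8 lists of 168 names in all, of which 160 genes had a value and 146 were in the fit. In limma 2 of these 146 passed and both fell, beside 1.65% of all genes tested, and 24 had an unadjusted p under 0.05, beside 16.8%. With no filter 0 of the 160 passed in limma, with 26 at an unadjusted p under 0.05, beside 0 of all 18404 genes and 15.6% at an unadjusted p under 0.05. Of the 146, 84 were positive and 62 negative, with a median of 0.08.

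The genes that fell were TRAPPC13 and EXOC5. TRAPPC13, a subunit of the TRAPP complexes that tether vesicles and activate RAB1, was at 258, 323 and 242 with scrambled and at 103, 69.7 and 95.1 with SALL4 shRNA. All 3 knockdown arrays were far below the scrambled ones, a log2 change of -1.63 ± 0.21 (SE; limma adjusted p = 0.00885, 0.0951 with no filter). Its second probe set was at the floor on 5 of 6 arrays, and the mean of both gave -0.77 with an adjusted p of 0.0527. The other 13 of the 14 TRAPP genes did not pass; 10 of the 14 were positive and the median was 0.14. EXOC5, a subunit of the exocyst that tethers vesicles at the surface and binds RAB11 through another subunit, was at 692, 934 and 846 and at 395, 404 and 442 (-0.98 ± 0.19, limma adjusted p = 0.0292, 0.104 with no filter). It passed in none of the 6 fits without 1 array, with adjusted p from 0.0523 to 0.109. Its other 2 probe sets were at -1.04 and -0.43, and the mean of all 3 gave an adjusted p of 0.0589.

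RAB5 effectors lay evenly on both sides of zero. Of 14 in the fit, 7 were positive and 7 negative, with a median of 0.01 and 0 calls (limma; 1 at an unadjusted p under 0.05, 0 called with no filter). OCRL, an inositol phosphatase of endosomes, was at 247 ± 12.8 and 166 ± 55.6 (SD, n = 3 each), a difference of -0.63 that was -0.39 without knockdown replicate 2. INPP5B, its paralog, was at 0.36, or 0.13 without knockdown replicate 1. EEA1, the tether of early endosomes, was at 592 ± 107 and 704 ± 121, a difference of 0.25 ± 0.21 (SE), and RABEP1, which binds the RAB5 exchange factor, at 0.10. EEA1 and RABEP1 were singled out after their values were seen. Of the 19 RAB11 partners 16 were in the fit, 8 positive and 8 negative with a median of 0.02. In limma 15 of the 16 did not pass, and 4 had an unadjusted p under 0.05, beside 16.8% of all genes. The groups did not overlap for 3 higher and 2 lower genes of the 16, beside 11.5% and 10.8% of all genes.

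RAB7 effectors had the highest median of the 8 lists, 0.30, with 11 of 14 positive, but 0 passed (limma; 3 at an unadjusted p under 0.05, 0 called with no filter). VPS35, the core of the retromer that retrieves cargo from endosomes, was at 435, 558 and 570 with scrambled and at 738, 829 and 993 with SALL4 shRNA. The groups do not overlap, and the log2 difference was 0.71 ± 0.20 (SE; limma adjusted p = 0.0909, and 0.0336 with the trend and robust settings). VPS26A (0.26), VPS26B (0.44) and VPS29 (-0.05), also of the retromer, overlapped between the groups. VPS41, of the HOPS tether of late endosomes, was at 174, 158 and 205 and at 302, 268 and 193, which overlap (0.49 ± 0.21).

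Among exchange factors 20 of 34 were positive with a median of 0.07 and 0 calls (limma; 4 at an unadjusted p under 0.05). DENND2C was at 84.6, 125 and 125 and at 174, 254 and 205 (0.93 ± 0.22, SE; adjusted p = 0.0585), without overlap, and RGP1, part of the exchange factor of RAB6, at 0.78 ± 0.27 (0.51 without scrambled replicate 3). On the list of GTPase-activating proteins 19 of 34 genes were positive with a median of 0.11 and 0 calls (limma, 6 at an unadjusted p under 0.05). TBC1D19 was at 1.07 ± 0.32 from a dim level (24.3 ± 10.8 and 50.3 ± 17.3, SD, n = 3 each). TBC1D32 was at -0.90 ± 0.28 (-0.55 without knockdown replicate 2). Whether each gene of this list acts on RABs was not tested. The 5 genes of prenylation and GDP dissociation had a median of -0.13 and 0 calls (1). GDI2, which extracts inactive RABs from membranes, was at 1287, 1299 and 1329 and at 1051, 958 and 869, each knockdown array lower, a difference of -0.45 ± 0.18, and CHML, a RAB escort protein, was at -0.24 (-0.46 to -0.10 without 1 array). Of 15 effectors of secretory RABs 7 were positive, with a median of -0.06 and 0 calls (3); GORASP1, a Golgi stacking protein, was at 0.65 ± 0.20 and OPTN, which binds RAB8, at 0.61 ± 0.19, both without overlap.

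**Figure D4:**
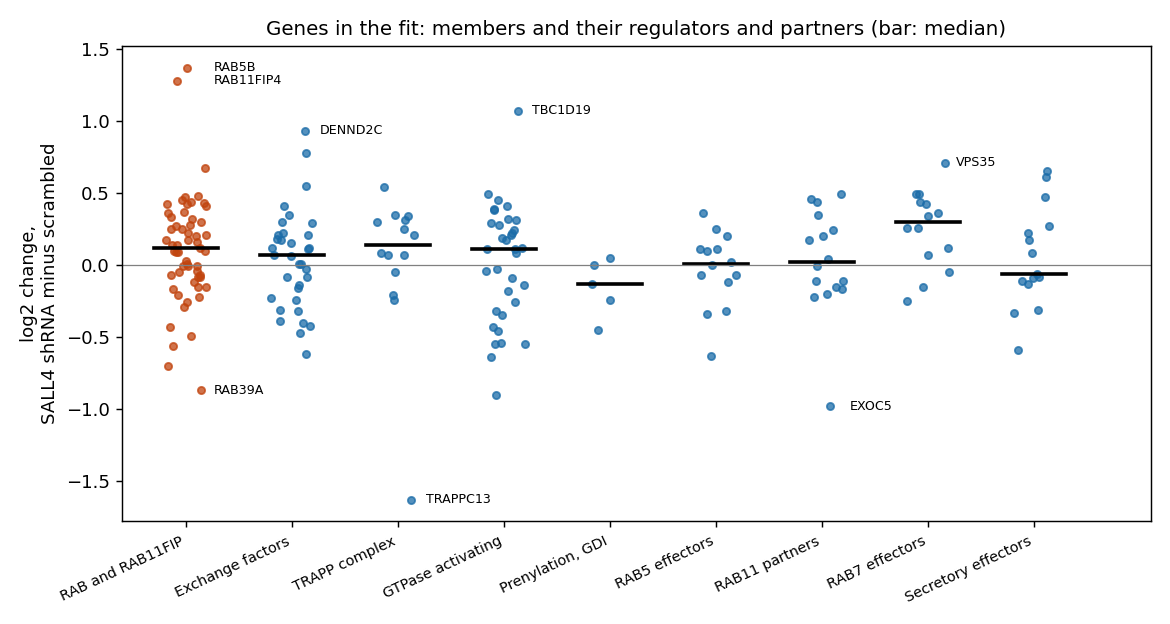
Log2 change (SALL4 shRNA minus scrambled, y axis) of the members in the fit and of the genes of 8 lists of regulators and partners, 1 point a gene, with a bar at each median. Medians lie between -0.13 and 0.30, and TRAPPC13 (-1.63) and EXOC5 (-0.98) are the 2 lowest points.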

How the data were processed

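The authors' deposited table holds linear intensity values of 32319 probe sets on 6 arrays. The submitters' processing notes name RMA, a method that corrects background, normalizes and summarises probes; version, later steps and genome build: not given in the sources used here. The values are linear and never below 10, although RMA gives log2 values, so a value at that floor is only an upper limit, and the fit makes low genes look less changed than they may be.

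Log2 of each intensity was taken. Platform annotation gave 19158 probe sets 1 symbol and 1388 several, and 11773 are not listed; symbols were updated through Entrez identifiers (19128 matched). Of several probe sets of a gene the one with the highest mean was used. Each gene is compared with itself across arrays only, since probe sets bind differently. SALL4 shRNA minus scrambled was fitted with limma 3.58.1 under R 4.3.3 (lmFit, then eBayes, two-sided, Benjamini-Hochberg over 13325 genes, threshold 0.05). Genes entered with a log2 mean over all 6 arrays of 5 or more, a filter that does not use the groups; fits with no filter and others are alternatives. SE comes from limma, SD from 3 arrays. The number of arrays limits the precision. The members, lists, compartment groups and tests were chosen with earlier results of these data known. Members named are RAB1A, RAB7A, the RAB5, RAB11 and RAB11FIP genes, the 6 largest changes either way, those past the threshold and the 3 with the highest scrambled intensity per group; lists name members that passed, or otherwise the 2 largest changes. Other members are named with their values because the account covers the family. Pathway names without a value have no probe set of a single gene here.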

Additional observations from a re-analysis of the deposited data

How the results depend on the processing

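Over 15 alternatives, 589 of 615 values of 41 named genes (27 members and 14 partners, without the 2 genes the family was picked on) kept their direction and their side of the threshold. Only TRAPPC13 and EXOC5 of these 41 passed in the comparison as reported, so for the others staying above the threshold says little. Of the remaining values 13 lost the threshold, all of TRAPPC13 or EXOC5, 3 gained it and 10 turned sign. Over the same 15, the log2 change of RAB5B ranged from 1.08 to 1.49 and that of RAB11FIP4 from 1.01 to 1.55. These ranges are a description without a test, and nothing is read from whether these 2 genes enter the count below. The count of members past an adjusted p of 0.05, 2 in the comparison as reported, was 0 with no filter, 1 when only genes at the floor on all arrays were left out, 1 with the replicate block, 0 without scrambled 3 and SALL4 shRNA 2 together, 3 with the trend and robust settings (with RAB5A), and 1 to 2 without 1 array. The count of regulators and partners, also 2, was 0 with no filter, 1 without genes at the floor, 4 with the trend and robust settings, 0 with the mean of probe sets, 1 with the replicate block, 1 without both arrays together and 1 without any 1 array. SALL4 kept its change (-1.30 with no filter, -1.20 without both arrays) but not the threshold there. Replicate numbers gave no sign of pairing: same-numbered arrays had correlations of their deviations of 0.00, -0.09 and -0.04. With 3 arrays per group this cannot show that the samples were unpaired. The block changed 220 calls over all genes to 37, but it also leaves fewer degrees of freedom, so the fall says nothing about pairing. Over all genes the calls were 0 with no filter, 40 without genes at the floor, 486 with trend and robust settings, 20 without both arrays and 37 to 97 without 1 array; fewer arrays leave fewer degrees of freedom. Small changes turned sign: RAB7A (-0.21 with the mean of probe sets), RAB22A (-0.11 without both arrays) and, over the fits without 1 array, RAB22A (-0.03 to 0.30), RAB40C (-0.01 to 0.22), RAB11A (-0.27 to 0.02), RAB29 (-0.17 to 0.16) and RAB21 (-0.21 to 0.04). Apart from probe sets and arrays left out, the cause was not tested.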
